A study of Homo sapiens with 42 samples.

Results

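Small nucleolar RNAs (snoRNAs) and small Cajal body RNAs (scaRNAs) were followed on 42 one-colour Affymetrix arrays of 2 human lung cancer cell lines before and after ionizing radiation. The members were the entries with a single gene symbol beginning SNORA, SNORD or SCARNA, leaving out SNORD113 to SNORD116, with 1 entry per symbol (the brightest on average). This gave 146 RNAs of 18404 genes tested: 61 H/ACA box snoRNAs (SNORA), 69 C/D box snoRNAs (SNORD) and 16 scaRNAs (SCARNA). The classes follow the symbols, so the 69 include SNORD13P1, SNORD13P2 and SNORD13P3, which the RefSeq gene table lists as pseudogenes. A further 63 entries paired a snoRNA or scaRNA with another gene and were not used.

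H460, a large-cell lung carcinoma line that the study calls radiosensitive, was set against H1299, a lung carcinoma line that the study calls radioresistant. Both lines were in exponential growth, received 2 Gy of γ-radiation and were sampled at 0, 2, 4, 8, 12 and 24 h, with 6 arrays per line at 0 h and 3 per line at each later time. The arrays of a group are labelled as biological replicates. All arrays after 0 h are of irradiated cells, so radiation and time in culture cannot be told apart, and in bulk RNA fewer cells of a kind and less RNA per cell cannot be told apart. Values are log2 intensities, and a change is a later time minus 0 h on that scale. Many RNAs described singly below were picked by a rule that asked for non-overlapping groups at their largest change. For those RNAs the lack of overlap at that time is no separate result.

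snoRNAs work in the nucleolus. Box C/D RNAs pair with ribosomal RNA and direct ribose methylation by fibrillarin, and box H/ACA RNAs direct the conversion of uridine to pseudouridine by dyskerin. scaRNAs carry the same boxes but reside in Cajal bodies, where they direct the same modifications in spliceosomal small nuclear RNAs. Most human members are cut out of introns of other genes, often genes for ribosomal proteins or long noncoding RNAs whose main known product is the snoRNA. A probe for such a member may also bind unspliced RNA of the host gene.

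By position in the RefSeq gene table (GRCh38.p14, which gives no strand), 144 of the 146 members lay within another gene. SNORD13 and SNORD32B were the exceptions. For 133 members a single host gene could be set, and these 133 shared 92 hosts, of which 26 held at least 2 members. Ribosomal protein genes held 33 members and long noncoding RNA genes 25. Many ribosomal protein and translation genes begin with a pyrimidine tract, the mark of messengers whose translation follows growth signals. In the RefSeq promoter windows, a run of at least 5 C or T letters covering the annotated start was found in 11 of 11 matched ribosomal protein hosts, in 21 of 65 other hosts and in 9.60% of all 35116 windows. Only the first listed window of each host was used, so a run at another start of a host was not looked for. The windows below cover 30 bases before the annotated start and 15 from it, on the transcribed strand, and capitals mark C or T letters in an unbroken run over the start. They are shown because they belong to hosts of members whose levels are described in the paragraphs that follow. The runs are a description of letters only.
RPL27A (chr11:8682762-8682806, plus strand, host of SNORA3A and SNORA3B): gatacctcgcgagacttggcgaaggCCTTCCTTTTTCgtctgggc
RPSA (chr3:39406690-39406734, plus strand, host of SNORA62): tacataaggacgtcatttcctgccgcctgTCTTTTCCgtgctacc
RPL3 (chr22:39319609-39319653, minus strand, host of SNORD43 and SNORD83A): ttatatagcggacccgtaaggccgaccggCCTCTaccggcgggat
SNHG1 (chr11:62855871-62855915, minus strand, host of SNORD28 and SNORD30): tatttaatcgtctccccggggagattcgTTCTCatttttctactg
GAS5 (chr1:173869031-173869075, minus strand, host of 7 measured C/D RNAs): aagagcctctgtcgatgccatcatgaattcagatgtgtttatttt
HSPA8 (chr11:123062122-123062166, minus strand, host of SNORD14C and SNORD14E): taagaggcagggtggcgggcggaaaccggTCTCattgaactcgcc
TCP1 (chr6:159789588-159789632, minus strand, host of SNORA20 and SNORA29): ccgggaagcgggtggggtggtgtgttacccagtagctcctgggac
The runs of RPL27A, RPSA, RPL3 and SNHG1 had 12, 8, 5 and 5 letters, that of HSPA8 had 4, and the GAS5 and TCP1 windows had no run over the start.

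Before the changes, the state of the arrays is given once. The epithelial keratins KRT8 and KRT18 were high in both lines (10.4 to 12.5), KRT19 was at 11.0 to 11.9 in H460 and 4.48 to 5.65 in H1299, and the epithelial markers EPCAM and CDH1 were at 4.58 or below. Of the leukocyte list, PTPRC, LYZ, CD3E and HBB were at 4.80 or below on every array, and CD14 was at 5.49 to 6.60 in H460 and 3.99 to 5.09 in H1299. Of the fibroblast list, DCN was at 3.37 or below, LUM reached 5.26 in H460 and 2.78 in H1299, COL1A1 lay at 6.33 to 7.28 in H460 and 5.89 to 6.63 in H1299, and PDGFRB at 5.35 to 6.44 in H460 and 4.34 to 5.18 in H1299. The part of other cell types in the results was not tested. The spread of an array, taken as the interquartile range of its 18404 values, differed between groups. In H460 the 2 h arrays averaged 2.84 ± 0.12 and the 24 h arrays 3.64 ± 0.07, against 3.34 ± 0.17 before irradiation. The H1299 arrays averaged 3.67 ± 0.04 after 24 h and 3.58 ± 0.17 before irradiation, where replicate 2 stood alone at 3.24 (SD, n = 3 for later times and 6 for 0 h). They averaged 3.81 ± 0.07 at 8 h and 3.82 ± 0.10 at 12 h, and all arrays of both times were wider than every H1299 array at 0 h (highest 3.69). On a narrow array bright probes read lower and dim probes higher, so the counts of called members over time are also given with array spread as a term in the model.

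The means of the 2 snoRNA classes showed a dip at 2 h, a recovery by 8 h and a second fall at 24 h in H460. Those in H1299 moved less, mostly within the range of the 0 h arrays. Box C/D RNAs averaged 7.02 ± 0.20 before irradiation (SD, n = 6) and then 6.43, 6.85, 7.06, 7.01 and 6.72 over the 5 later times in H460. In H1299 the same mean ran 6.73, 6.53, 6.66, 6.73, 6.76 and 6.55 from 0 to 24 h. Box H/ACA RNAs ran 6.16, 5.83, 6.06, 6.13, 6.07 and 5.82 over the same times in H460, and 5.99, 5.80, 5.82, 5.91, 5.86 and 5.74 in H1299. The scaRNAs ran 6.07, 5.89, 6.10, 6.27, 6.19 and 6.13 in H460, where the 24 h arrays lay inside the 0 h range. In H1299 they averaged 6.54 at 0 h and 6.35 to 6.43 afterwards. The H460 C/D arrays at 24 h (6.70 to 6.77) overlapped those at 0 h (6.73 to 7.30). The H460 C/D arrays at 2 h and H/ACA arrays at 2 and 24 h lay below their 0 h ranges. In H1299 every later C/D and scaRNA array lay inside its 0 h range (6.29 to 7.20 for C/D). The H1299 H/ACA arrays lay wholly below their 0 h range (5.77 to 6.34) only at 24 h (5.74 to 5.75). The class means are over probes of unequal affinity, so their height is no measure of abundance.

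**Figure D1:**
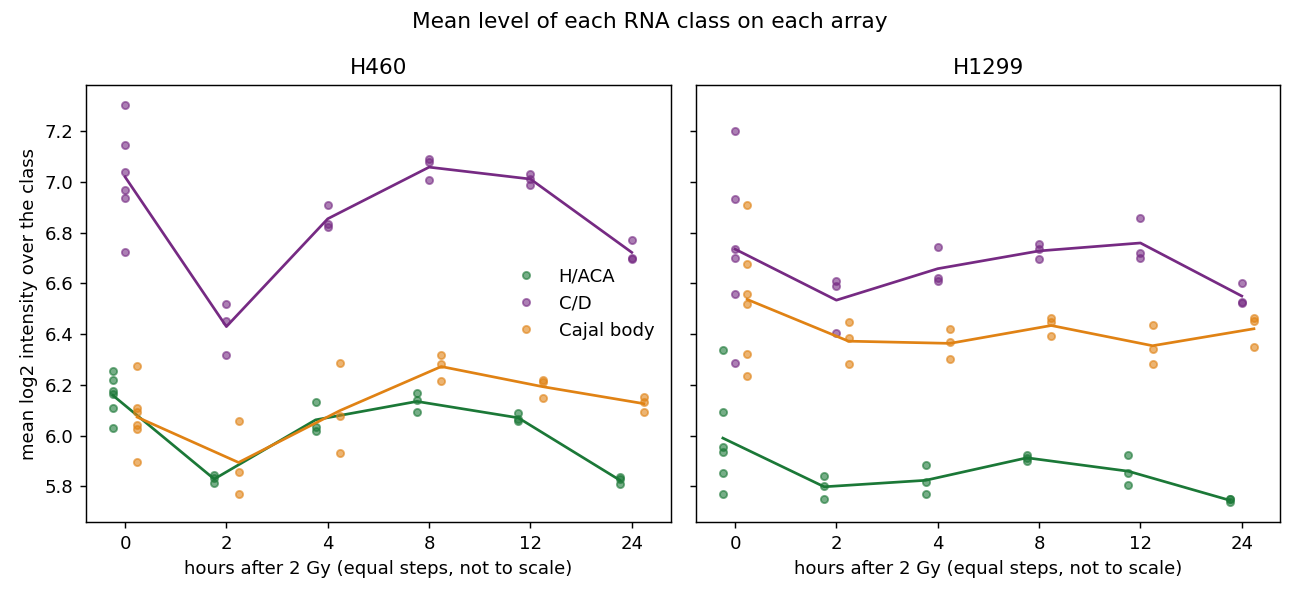
Mean log2 intensity of the 61 H/ACA, 69 C/D and 16 Cajal body RNAs on each array (points) and the group mean (lines) by hours after 2 Gy, H460 left and H1299 right. The C/D mean of H460 lies at 6.43 at 2 h, 7.06 at 8 h and 6.72 at 24 h.

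A quadratic curve in hours was fitted for each RNA and line and tested with limma, adjusting over all 18404 genes, with direction taken from the largest change against 0 h. In H460, 53 of 146 members were called, 23 higher and 30 lower, where 41.9% of all genes were called (20.5% higher and 21.4% lower). In H1299, 42 were called, 14 higher and 28 lower, where 36.5% of all genes were called (19.9% higher and 16.6% lower). The members' shares were 36.3% and 28.8%. With array spread as a term the order turned round: 70 members were called in H460 (47.9%, where 15.8% of all genes were called) and 73 in H1299 (50.0%, where 22.9% were called). By class, 27 of 61 H/ACA, 20 of 69 C/D and 6 of 16 Cajal body RNAs were called in H460, against 21, 19 and 2 in H1299. In both lines 7 members were higher, in both 7 were lower, and 5 went opposite ways, without a count of the same over all genes. A quadratic curve is poorly suited to a dip followed by a recovery: with a separate mean for each time, 119 members (81.5%) were called in H460, where 69.3% of all genes were called, and 53 (36.3%) in H1299, where 37.5% were called. The changes at single times are therefore given next.

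At 24 h, members fell far more often than they rose in both lines. In H460, 54 of 146 members were lower and 10 higher at adjusted p under 0.05, where 12.4% of all genes were lower and 16.2% higher (28.7% in all). In H1299, 26 were lower and 0 higher, where 3.21% of all genes were lower and 8.53% higher (11.7% in all). In H1299 1 member was higher and 52 lower at an unadjusted p under 0.05. The median change of the members was -0.26 in H460 and -0.19 in H1299, beside -0.05 and 0.00 for all genes.

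The 24 h fall was shared by both snoRNA classes. In H460, 28 of 61 H/ACA RNAs were lower and 3 higher (median change -0.34), and 24 of 69 C/D RNAs were lower and 4 higher (median -0.26). Of the 16 scaRNAs, 2 were lower and 3 higher (median -0.03). In H1299, 14 H/ACA, 10 C/D and 2 Cajal body RNAs were lower, with medians of -0.22, -0.17 and -0.11. Centring each array on its median gave 58 lower and 10 higher in H460 and 29 lower and 0 higher in H1299; over all genes the split of higher and lower calls then moved to 2602 and 3152 in H460, against 2988 and 2287 as deposited, and to 1114 and 746 in H1299, against 1570 and 591. With array spread as a term, 56 members were lower in each line and none higher by limma (1 in H460 and 2 in H1299 were higher at an unadjusted p under 0.05), so the 10 rises in H460 were no longer called, and 39 of the 54 in H460 and 26 of the 26 in H1299 were still called. Of all genes, 4.01% were lower in H460 and 5.76% in H1299 with that term. The H1299 falls by class were then 25 H/ACA, 26 C/D and 5 Cajal body RNAs.

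**Figure D2:**
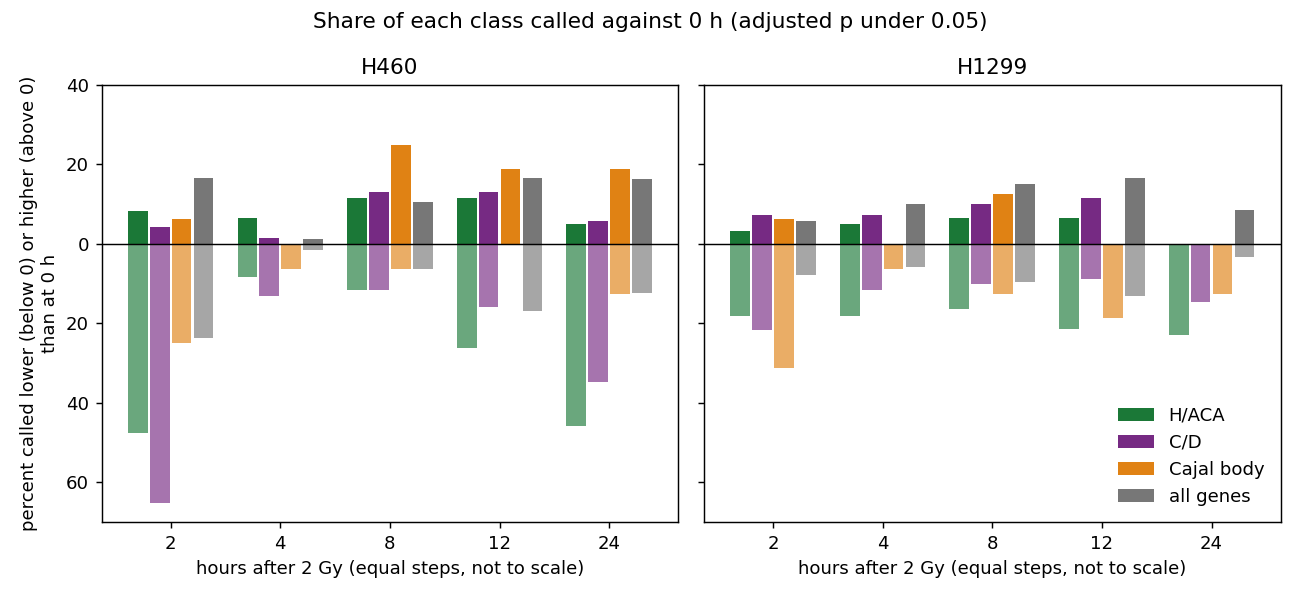
Percent of each class called higher (above 0) or lower (below 0) than at 0 h at each later time, with all 18404 genes in grey, H460 left and H1299 right. At 24 h the downward bars of H/ACA and C/D RNAs exceed that of all genes in both lines (12.4% in H460, 3.21% in H1299).

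At 24 h 19 members were lower in both lines, which is 19 of the 54 in H460 and 19 of the 26 in H1299. They were 11 H/ACA RNAs, 7 C/D RNAs and the scaRNA SCARNA23, and their changes ran from -1.34 to -0.41 in H460 and from -0.76 to -0.38 in H1299. SNORA3A and SNORA3B, which share the host RPL27A, were among them, as were SNORA2A and SNORA2B of KANSL2 and SNORD74 and SNORD81 of GAS5, pairs chosen after their values were seen. Each line was set against its own 0 h arrays, and the overlap over all genes was not counted, so these 19 have no background share. Among the 26 lower members in H1299, 12 were called with every single H1299 array left out in turn, and in H460 38 of 54 were called with every single H460 array left out. The H1299 count was 16 without 24 h replicate 1 and 47 without 0 h replicate 2, against 26 with all arrays.

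SNORA3B was at 6.21, 6.08 and 6.16 in H460 at 24 h, against a lowest, median and highest value of 7.27, 7.42 and 7.79 at 0 h. Values in H1299 were 6.12, 6.12 and 6.25 at 24 h, against 6.43, 6.84 and 7.15 at 0 h. The 24 h arrays lay below all 0 h arrays in both lines, and the changes were -1.34 ± 0.13 (limma model SE, adjusted p = 5.66e-08) in H460 and -0.63 ± 0.12 (adjusted p = 0.00115) in H1299. The H460 change minus the H1299 change was -0.71 ± 0.19 (interaction, adjusted p = 0.00725).

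SNORD74, one of the brightest members, was at 10.30, 10.13 and 10.34 in H460 at 24 h, against 10.87, 11.17 and 11.30 (lowest, median, highest) at 0 h. The H1299 values were 9.10, 9.17 and 9.16 at 24 h, against 9.34, 9.49 and 9.89 at 0 h. Neither pair of groups overlapped. The changes were -0.90 ± 0.10 (limma, adjusted p = 2.47e-07) in H460 and -0.38 ± 0.08 (adjusted p = 0.00326) in H1299, or 0.538 and 0.766 times the 0 h level. They differed by -0.51 ± 0.13 (interaction, adjusted p = 0.00708).

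SNORA28, in an intron of the translation factor gene EIF5, was at 4.57, 4.74 and 4.32 in H460 at 24 h, against 5.20, 5.51 and 5.87 (lowest, median, highest) at 0 h. H1299 gave 5.12, 5.44 and 5.57 at 24 h, against 5.64, 6.10 and 6.60 at 0 h. The 24 h arrays again lay below the 0 h arrays in both lines. The changes were -0.97 ± 0.15 in H460 (limma, adjusted p = 2.72e-05) and -0.73 ± 0.17 in H1299 (adjusted p = 0.00468), and their difference of -0.24 ± 0.23 did not pass the threshold (adjusted p = 0.552). EIF5 itself changed by -0.22 ± 0.14 in H460 (adjusted p = 0.233) and 0.07 ± 0.08 in H1299 (adjusted p = 0.664).

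Members that fell in H460 and not, by the test, in H1299 included some of the largest falls. SNORA13 is an H/ACA RNA that lies where EPB41L4A and its antisense gene overlap (chr5:112161485-112161617), and the source of its signal cannot be told apart between them. In H460 it lay at 6.20, 6.37 and 6.61 (lowest, median, highest) at 0 h, at 5.11, 5.01 and 5.09 at 2 h, at 5.28, 6.21 and 6.02 at 4 h, at 5.61, 5.64 and 5.70 at 8 h, at 5.53, 5.49 and 5.39 at 12 h and at 4.79, 5.05 and 4.78 at 24 h. Only the 4 h arrays overlapped those at 0 h, and the lack of overlap at 24 h was a condition of its choice. In H1299 every group lay between 4.11 and 5.15. The change at 24 h was -1.51 ± 0.14 in H460 (limma, adjusted p = 3.74e-08, 0.352 times the 0 h level) and -0.13 ± 0.15 in H1299 (adjusted p = 0.675), and these differed (interaction -1.38 ± 0.21, adjusted p = 7.76e-06). The H460 arrays at 24 h lay within the H1299 range at 0 h.

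SNORD43, a C/D RNA of RPL3 that guides methylation of small-subunit rRNA, fell late. In H460 it was at 8.91, 9.37 and 9.42 (lowest, median, highest) at 0 h, 8.99, 9.23 and 8.97 at 2 h, 9.20, 8.87 and 9.0 at 4 h, 8.13, 8.32 and 8.28 at 8 h, 8.48, 8.33 and 8.44 at 12 h and 8.13, 7.75 and 7.97 at 24 h. From 8 h on all arrays lay below those at 0 h. Its H1299 levels were 7.15, 7.06 and 7.21 at 24 h, against 7.12, 7.33 and 7.56 at 0 h, with the groups overlapping. The changes at 24 h were -1.31 ± 0.12 in H460 (limma, adjusted p = 1.07e-08) and -0.19 ± 0.11 in H1299 (adjusted p = 0.345), with a difference of -1.12 ± 0.16 (interaction, adjusted p = 4.70e-06). It was the member with the smallest adjusted p of the difference between the lines' time courses (0.000123). A second RPL3 RNA, SNORD83A, changed by -0.75 ± 0.13 in H460 and -0.03 ± 0.14 in H1299 at 24 h. RPL3 also held SNORD83B, which the naming rules did not pick and which is not described here.

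SNORA62, an H/ACA RNA of the ribosomal protein gene RPSA, was at 6.48, 6.28 and 5.37 in H460 at 24 h, against 7.05, 7.32 and 7.77 (lowest, median, highest) at 0 h. H1299 levels stood at 5.65, 5.68 and 6.0 at 24 h, against 5.67, 6.24 and 6.64 at 0 h. The groups did not overlap in H460 and overlapped in H1299. Its change at 8 h was -0.99 ± 0.21 in H460 (limma, adjusted p = 0.00271) and 0.43 ± 0.18 in H1299 (adjusted p = 0.0824), and the difference of -1.41 ± 0.29 passed the test (interaction, adjusted p = 0.00138). RPSA also held SNORA6, which the naming rules did not pick and which is not described here.

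GAS5, a long noncoding RNA gene known for rising in growth arrest, held 7 measured C/D RNAs. Its own entry was not among the genes tested. At 24 h in H460 5 of the 7 fell, with changes of -1.18 (SNORD81), -0.90 (SNORD74), -0.90 (SNORD78), -0.80 (SNORD44) and -0.57 (SNORD75), while SNORD77 and SNORD79 changed by -0.38 ± 0.23 and -0.10 ± 0.19. In H1299 at 24 h SNORD74 and SNORD81 fell and the other 5 lay between -0.25 and -0.01. SNORD78 was at 9.68, 9.65 and 9.49 in H460 at 24 h, against 10.39, 10.53 and 10.61 at 0 h, and at 8.73, 8.51 and 8.79 in H1299, against 8.58, 8.95 and 9.26 at 0 h. The 24 h change of SNORD78 differed between the lines by -0.65 ± 0.16 (limma interaction, adjusted p = 0.00589). RNAs of 1 host are not independent of each other.

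SNHG1, another long noncoding host gene, held SNORD28 and SNORD30, both C/D RNAs. SNORD30 was at 8.41, 8.66 and 8.49 in H460 at 24 h, against 9.01, 9.38 and 9.47 (lowest, median, highest) at 0 h, and at 8.42, 8.09 and 8.76 in H1299, against 8.35, 8.99 and 9.39 at 0 h. The groups were apart in H460 and overlapped in H1299. SNORD30 fell in both lines, with changes of -0.78 ± 0.14 in H460 (limma, adjusted p = 0.000250) and -0.51 ± 0.15 in H1299 (adjusted p = 0.0229). SNORD28 changed by -0.22 ± 0.13 in H460 and -0.29 ± 0.19 in H1299 at 24 h, and neither passed the test, although with spread as a term its H1299 change was called (-0.46, adjusted p = 0.0374).

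**Figure D3:**
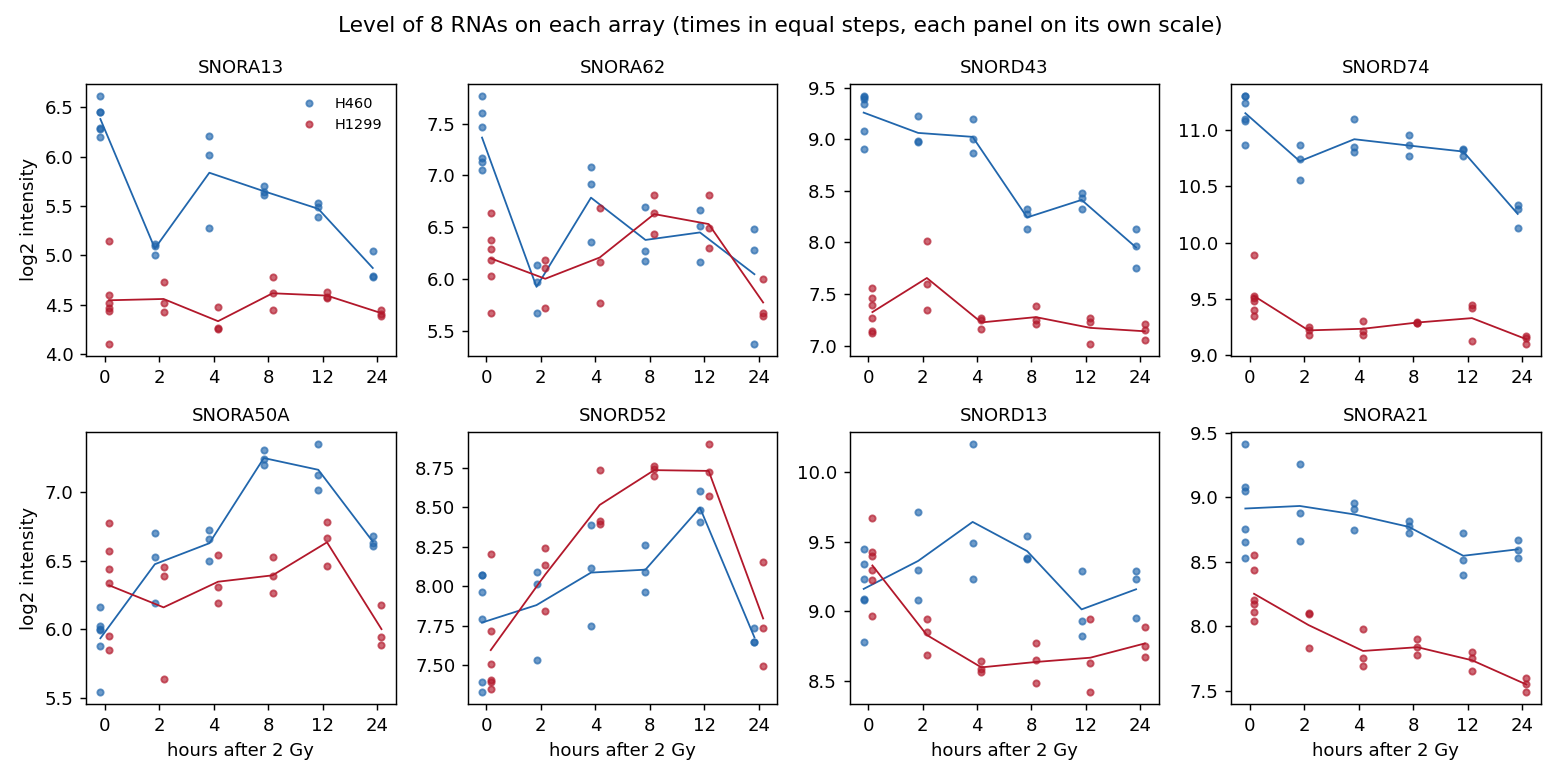
Log2 intensity of 8 RNAs on each array (points; lines join group means) by hours after 2 Gy, H460 in blue and H1299 in red. SNORA13, SNORA62, SNORD43 and SNORD74 lie lower at 24 h than at 0 h in H460, SNORA50A is higher from 2 h on in H460, SNORD52 peaks at 8 to 12 h in H1299, and SNORD13 and SNORA21 fall in H1299.

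At 2 h the largest number of members fell in H460, on its narrow arrays. Of the 146, 78 were lower and 9 higher, where 23.7% of all genes were lower and 16.7% higher (40.4% in all). The share was 45 of 69 for C/D RNAs (median change -0.67), 29 of 61 for H/ACA RNAs (median -0.34) and 4 of 16 for scaRNAs (median -0.13). In H1299 31 were lower and 8 higher, where 7.93% of all genes were lower and 5.88% higher (13.8% in all), with 15 C/D, 11 H/ACA and 5 Cajal body RNAs lower. At 2 h 21 members were lower in both lines, which is 21 of 78 in H460 and 21 of 31 in H1299. The same overlap over all genes was not counted. With array spread as a term, 0 members and 0 of all genes were called by limma in H460 at 2 h (29 members and 1528 genes at an unadjusted p under 0.05). The spread of the 2 h arrays (2.75 to 2.97) lay wholly below that at 0 h (3.14 to 3.63), so time and spread cannot be told apart there. Quantile normalization, which gives all arrays 1 spread, left 72 lower and 12 higher, and 67 of the 78 were still called. In H1299 13 were higher and 39 lower with spread as a term, and 31 of the 31 falls were still called. The H1299 calls at 2 h also rested on single arrays: 66 members were called without 0 h replicate 2, the array of narrow spread, 19 without 2 h replicate 1, 19 without 2 h replicate 3 and 24 without 2 h replicate 2, against 39 with all arrays. With each array left out in turn, 9 of the 31 falls and 0 of the 8 rises were called every time, and 0 of the 8 rises were called with the replicate block or with only 0 h replicates 1 to 3.

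Of the 78 members lower in H460 at 2 h, 39 were also lower at 24 h and 39 were not. Both times were set against the same 0 h arrays, so these calls are not independent, and the same was not counted over all genes. SNORD81 of GAS5 was at 8.35, 8.38 and 7.39 in H460 at 2 h, against 8.86, 9.44 and 9.81 (lowest, median, highest) at 0 h, and had a change of -1.37 ± 0.18 (limma, adjusted p = 1.31e-05). In H1299 its 2 h arrays were at 7.78, 7.75 and 7.76, against 7.65, 7.99 and 8.54 at 0 h, with a change of -0.27 ± 0.17 (adjusted p = 0.330). The groups were apart in H460 and overlapped in H1299. Over members at 2 h, 33 fell further or rose less in H460 than in H1299 by the interaction test and 9 went the other way, where 18.5% and 10.2% of all genes did so (28.6% in all). The balance turned round with array spread as a term, to 6 and 11.

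Between 2 and 24 h, members both rose and fell. At 4 h 5 members were higher and 15 lower in H460 (1.37% and 1.55% of all genes, 2.92% in all), and 8 were higher and 20 lower in H1299 (10.0% and 5.83%, 15.9% in all). At 8 h 20 were higher and 16 lower in H460 (10.7% and 6.22% of all genes, 16.9% in all), and 13 higher and 19 lower in H1299 (15.0% and 9.54%, 24.6% in all). At 12 h 19 were higher and 27 lower in H460 (16.7% and 16.8%, 33.5% in all), and 12 higher and 22 lower in H1299 (16.6% and 13.1%, 29.7% in all). In H460 13 members were higher at both 8 and 12 h, and in H1299 10, with both times set against the same 0 h arrays. The scaRNAs held 4 of the 20 rises at 8 h in H460. The H460 arrays were wider at 8 h (3.62 to 3.66) and 12 h (3.63 to 3.73) than most at 0 h, and with spread as a term 3 members were higher and 6 lower at 8 h, and 3 higher and 18 lower at 12 h. At 4 h in H460 it gave 7 higher and 23 lower. In H1299 most calls were then falls, with 8 higher and 51 lower at 4 h, 6 and 54 at 8 h, and 3 and 55 at 12 h. Of all genes, 10.3% were higher and 8.92% lower at 4 h, 8.28% and 7.29% at 8 h, and 9.20% and 8.53% at 12 h. Every H1299 array at 8 and 12 h was wider than all of those at 0 h, so time and spread cannot be told apart there.

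SNORA50A and SNORA46, H/ACA RNAs of introns of the deadenylation subunit gene CNOT1, rose in H460. SNORA50A was at 5.55, 6.0 and 6.17 (lowest, median, highest) at 0 h, 6.70, 6.19 and 6.53 at 2 h, 6.66, 6.72 and 6.50 at 4 h, 7.24, 7.30 and 7.19 at 8 h, 7.35, 7.01 and 7.12 at 12 h and 6.68, 6.63 and 6.61 at 24 h. Every later array lay above every 0 h array. The change at 8 h was 1.31 ± 0.13 (limma, adjusted p = 2.62e-07), or 2.48 times the 0 h level. In H1299 SNORA50A was at 6.38, 6.27 and 6.53 at 8 h, against 5.85, 6.39 and 6.77 at 0 h, with a change of 0.07 ± 0.17 (adjusted p = 0.789). The difference between the lines at 8 h was 1.24 ± 0.22 (interaction, adjusted p = 0.000285), and with spread as a term the H460 change was 1.06 (adjusted p = 0.000645).

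SNORA46 rose in both lines. In H460 it was at 6.59, 6.71 and 6.39 at 12 h, against 5.30, 5.45 and 5.77 (lowest, median, highest) at 0 h. H1299 arrays read 6.21, 6.03 and 5.87 at 12 h, against 5.23, 5.54 and 5.84 at 0 h. The groups were apart in each line, with changes of 1.05 ± 0.13 (limma, adjusted p = 2.32e-06) and 0.52 ± 0.13 (adjusted p = 0.00398). With spread as a term the H460 rise was called (0.79, adjusted p = 0.00688) and the H1299 rise was not (0.36, adjusted p = 0.0996). CNOT1 itself, given at 8 h and not at the 12 h of SNORA46, changed by 0.09 ± 0.10 in H460 (adjusted p = 0.542). In H1299 at 8 h it changed by 0.39 ± 0.06 (adjusted p = 8.01e-05).

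SNORD14E and SNORA29 were among the 6 largest called rises in H1299. SNORD14C and SNORD14E belong to the U14 group, which in yeast is needed to process small-subunit rRNA, and lie in HSPA8, a heat shock cognate gene. SNORA29 lies in TCP1, a chaperonin subunit gene. In H1299 SNORD14E was at 6.44, 7.44 and 8.15 (lowest, median, highest) at 0 h, 7.84, 8.40 and 8.21 at 2 h, 8.58, 8.54 and 8.40 at 4 h, 8.30, 8.39 and 8.40 at 8 h, 8.34, 8.34 and 8.23 at 12 h and 7.54, 7.42 and 7.89 at 24 h. The arrays from 4 to 12 h lay above all those at 0 h, and those at 24 h among them. The change at 4 h was 0.22 ± 0.22 in H460 (limma, adjusted p = 0.642) and 1.10 ± 0.21 in H1299 (adjusted p = 0.000500), and the difference of -0.88 ± 0.33 did not pass the interaction test (adjusted p = 0.0859). SNORD14C was also called higher, by 0.79 in H1299 at 4 h and by 0.68 in H460 at 8 h. With spread as a term its H1299 rise was called (0.59, limma, adjusted p = 3.39e-05) and its H460 rise was not (0.16, adjusted p = 0.823). HSPA8 is given at 8 h rather than 4 h, with a change of 0.09 ± 0.05 in H1299 (adjusted p = 0.256).

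SNORA29 was at 5.62, 5.43 and 5.67 in H460 at 8 h, against 4.28, 5.03 and 5.32 (lowest, median, highest) at 0 h, a change of 0.64 ± 0.20 (limma, adjusted p = 0.0290). In H1299 it was at 6.95, 6.60 and 6.50 at 4 h, against 5.01, 5.57 and 6.28 at 0 h, a change of 1.10 ± 0.19 (adjusted p = 0.000265). The rise at 4 h differed between the lines (interaction -1.07 ± 0.30, adjusted p = 0.0180). A second TCP1 RNA, SNORA20, changed by 0.83 ± 0.14 in H460 at 8 h (adjusted p = 0.000418) and by 0.29 ± 0.21 in H1299 (adjusted p = 0.313). With spread as a term neither H460 rise was called (adjusted p = 0.920 for SNORA29 and 0.0989 for SNORA20). TCP1 changed by 0.07 ± 0.10 in H460 and 0.02 ± 0.05 in H1299 at 8 h, and neither passed the test. The H1299 rise of SNORA29 above is that of 4 h.

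SNORD52, a C/D RNA of the noncoding host SNHG32, had the smallest adjusted p of the H1299 time course (1.84e-07). In H460 its change was 0.34 ± 0.16 at 8 h (limma, adjusted p = 0.137) and 0.73 ± 0.16 at 12 h (adjusted p = 0.00160), a rise that was not called with spread as a term (0.43, adjusted p = 0.340). Values in H1299 were 7.35, 7.45 and 8.21 (lowest, median, highest) at 0 h, 8.14, 8.25 and 7.84 at 2 h, 8.74, 8.40 and 8.41 at 4 h, 8.77, 8.74 and 8.70 at 8 h, 8.90, 8.72 and 8.57 at 12 h and 7.74, 7.50 and 8.15 at 24 h. It lay above the 0 h range from 4 to 12 h and within it at 24 h. The change at 8 h in H1299 was 1.14 ± 0.15 (limma, adjusted p = 4.94e-06), or 2.21 times the 0 h level. The lines differed at 8 h by -0.81 ± 0.23 (interaction, adjusted p = 0.0200). SNORD59A and SNORD13P2 also rose in both lines, with peak changes in H460 of 0.93 ± 0.17 and 1.17 ± 0.13 at 12 h. Once spread was a term, the rise of SNORD59A was called in neither line (adjusted p = 0.324 in H460 and 0.399 in H1299). SNORD13P2 is a pseudogene copy of SNORD13, and the signals of near-identical copies are uncertain.

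The 4 C/D RNAs of RPL13A (SNORD32A, SNORD33, SNORD34 and SNORD35A) are known from rodent cells for a role in lipotoxic and oxidative stress outside the nucleolus. Of these, SNORD33 rose in H460, at 11.65, 11.74 and 11.87 at 8 h against 10.44, 10.78 and 11.46 (lowest, median, highest) at 0 h. The H1299 values were 11.27, 11.12 and 11.10 at 8 h, against 10.24, 11.47 and 11.78 at 0 h, with the groups overlapping. The change was 0.91 ± 0.14 in H460 (limma, adjusted p = 0.000192) and -0.09 ± 0.25 in H1299 (adjusted p = 0.820), with a difference of 1.0 ± 0.32 (interaction, adjusted p = 0.0355). Given a spread term, the H460 rise was not called (0.53, adjusted p = 0.173). The other 3 changed by -0.34 to -0.09 in H460 at 8 h, and none was called there.

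SNORD13, or U13, has its own promoter and takes part in acetylation of small-subunit rRNA. H1299 gave 8.96, 9.35 and 9.67 (lowest, median, highest) at 0 h, 8.69, 8.85 and 8.95 at 2 h, 8.58, 8.64 and 8.57 at 4 h, 8.77, 8.49 and 8.65 at 8 h, 8.63, 8.42 and 8.95 at 12 h and 8.89, 8.67 and 8.75 at 24 h. All 15 later arrays lay below the 0 h arrays. The change at 4 h was 0.48 ± 0.17 in H460 (limma, adjusted p = 0.122) and -0.73 ± 0.11 in H1299 (adjusted p = 5.54e-05), and these differed by 1.21 ± 0.22 (interaction, adjusted p = 0.000383). In H460 no time passed the test for SNORD13.

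Lasting falls in H1299 were also seen for SNORA21 of RPL23, SNORA71C of SNHG17 and SNORD104 of SNHG25, of which SNORD104 also fell in H460 at 24 h (-0.61 ± 0.14, against -0.59 ± 0.12 in H1299). SNORA21 was at 8.59, 8.67 and 8.53 in H460 at 24 h, against 8.53, 8.90 and 9.41 (lowest, median, highest) at 0 h, a change of -0.32 ± 0.14 (limma, adjusted p = 0.101). In H1299 the 24 h arrays were at 7.60, 7.49 and 7.55, against 8.04, 8.19 and 8.55 at 0 h, a change of -0.70 ± 0.09 (adjusted p = 1.50e-05). SNORA71C changed by -0.01 to 0.32 in H460 and by -0.61 to -0.45 in H1299, where it was called at every time. The lines differed at 24 h by 0.73 ± 0.17 for SNORA71C (interaction, adjusted p = 0.00238) and by 0.39 ± 0.18 for SNORA21 (adjusted p = 0.162). SNORA71C, SNORA71A and SNORA71D are close copies, and their signals are uncertain.

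Of the 6 scaRNA time courses called in H460, 4 were rises and 2 falls. These are 25% and 12.5% of 16, where 20.5% of all genes were higher and 21.4% lower. In H1299 5 of 16 scaRNAs were lower at 2 h, where 7.93% of all genes were lower. With array spread as a term 9 of 16 were lower at each of 4, 8 and 12 h there (medians -0.37, -0.44 and -0.48). Of all genes, 8.92%, 7.29% and 8.53% were then lower. With that term 0 scaRNAs were called higher in H460 at 8, 12 or 24 h by limma (1, 1 and 0 at an unadjusted p under 0.05). Without it 4, 3 and 3 were called higher, where 10.7%, 16.7% and 16.2% of all genes were. SCARNA9, which guides modification of a spliceosomal RNA and lies in CEP295, was at 8.14, 7.94 and 7.81 in H460 at 8 h and 7.91, 8.17 and 7.96 at 24 h, against 6.80, 7.24 and 7.64 (lowest, median, highest) at 0 h. Its H1299 levels were 7.80, 7.71 and 7.89 at 24 h, against 6.86, 7.44 and 8.13 at 0 h. Both H460 groups lay above the 0 h arrays and the H1299 groups overlapped. The change at 24 h was 0.80 ± 0.16 in H460 (limma, adjusted p = 0.000534) and 0.31 ± 0.18 in H1299 (adjusted p = 0.321), and the difference at that time was not called (0.50 ± 0.25, adjusted p = 0.206). With spread as a term the H460 rise was not called (0.39, adjusted p = 0.251).

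SCARNA5 and SCARNA6, both of ATG16L1, rose in H460 at 12 h by 0.53 ± 0.14 and 0.63 ± 0.22 (limma, adjusted p = 0.00549 for SCARNA5 and 0.0280 for SCARNA6). SCARNA11 fell in H460 at 24 h by 0.62 ± 0.19 (adjusted p = 0.0184). Once spread was a term, none of these was called (adjusted p = 0.588 for SCARNA5 and 0.344 for SCARNA6 at 12 h, and 0.420 for SCARNA11 at 24 h). In H1299 SCARNA22, of the histone methyltransferase gene NSD2, changed by -0.55 ± 0.14 at 12 h and SCARNA7 by -0.37 ± 0.09 at 4 h, both called falls. SCARNA17, which lies in SNHG22, had no called time course in either line, although at 8 h in H1299 it was called higher, by 0.41. With spread as a term that rise was still called (0.54, limma, adjusted p = 0.0304). The time courses of 4 scaRNAs differed between the lines, and for all 4 (SCARNA1, SCARNA5, SCARNA7 and SCARNA9) the H460 change was the higher one.

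The difference between the lines' time courses was called for 20 of 146 members, 14 with a higher H460 change and 6 with a lower one, where 10.2% and 6.48% of all genes were called (16.7% in all). These were 9 H/ACA, 7 C/D and 4 Cajal body RNAs. A spread term brought this to 46, where 18.5% of all genes were called. At 24 h 14 members fell further or rose less in H460 and 5 went the other way (4.70% and 7.75% of all genes, 12.4% in all), and the 14 became 4 with only 0 h replicates 1 to 3. At 8 h 22 had the higher change in H460 and 7 the lower one (6.56% and 3.55% of all genes, 10.1% in all). The same counts were 9 and 4 at 4 h (3.21% and 5.33% of all genes, 8.54% in all), and 10 and 7 at 12 h (5.21% and 3.47%, 8.68% in all). With array spread as a term the members with the higher and the lower H460 change numbered 18 and 6 at 4 h, 25 and 11 at 8 h, 9 and 15 at 12 h, and 3 and 29 at 24 h.

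Before irradiation the lines already differed in many members. At 0 h 58 of 146 were higher and 29 lower in H460 than in H1299, where 26.0% of all genes were higher and 29.1% lower (55.1% in all). Of the H/ACA RNAs 25 were higher and 13 lower, of the C/D RNAs 31 were higher and 8 lower, and of the scaRNAs 2 were higher and 8 lower. The median difference was 0.25 for H/ACA RNAs, 0.26 for C/D RNAs and -0.42 for scaRNAs, beside 0.07 for all genes.

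All 7 C/D RNAs of GAS5 were higher in H460 at 0 h, by 0.60 to 1.62 (median 1.37). SNORD43 averaged 9.26 ± 0.21 in H460 and 7.32 ± 0.18 in H1299 (SD, n = 6 each), a difference of 1.93 ± 0.10 (limma, adjusted p = 2.06e-12). SNORA13 was higher in H460 by 1.83 ± 0.14 and SNORA10, of RPS2, by 1.38 ± 0.09. None of the H460 arrays of these 3 RNAs overlapped the H1299 arrays, which was a condition of their choice for this comparison.

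The largest difference the other way was that of SCARNA10, a scaRNA in the condensin gene NCAPD2. SCARNA10 was at 5.43, 5.88 and 6.20 in H460 and at 7.22, 8.13 and 8.71 in H1299 (lowest, median, highest of 6 arrays), with no overlap and a difference of -2.28 ± 0.18 (limma, adjusted p = 1.57e-09). SCARNA7 was at 7.56, 8.15 and 8.62 in H460 and at 9.68, 9.93 and 10.20 in H1299, a difference of -1.81 ± 0.13 (adjusted p = 4.33e-10). SNORA20 of TCP1 differed by -1.79, SNORD54 of RPS20 by -1.78 and SNORD41 of TNPO2 by -1.47. All 5 had non-overlapping groups, which was again a condition of their choice for this comparison.

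**Figure D4:**
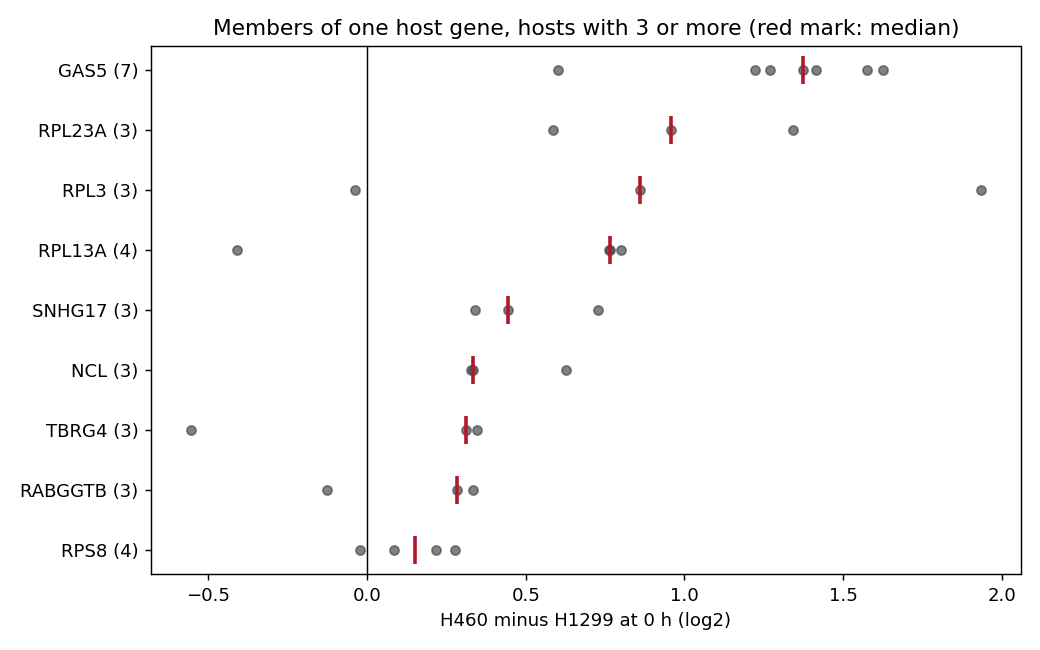
Difference at 0 h, H460 minus H1299 (log2), of each member of the hosts with at least 3 members (points; numbers in brackets count them) and their median (red). The 7 RNAs of GAS5 lie between 0.60 and 1.62, while RNAs of RPL13A and of RPL3 lie on both sides of 0.

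Changes of members were only weakly related to those of their hosts. For the 92 members whose host was also tested, Pearson's r between member and host change across pairs lay between -0.11 and 0.13 at the 5 times in the 2 lines. It is given as a description, since hosts are shared and probes differ. At 24 h in H460 the 18 members in 12 tested ribosomal protein genes had 9 lower and 0 higher (median -0.40). Of the 12 host genes, 5 were higher and 0 lower (median 0.24), where 16.2% of all genes were higher and 12.4% lower. Host changes in this paragraph are given without array spread as a term, and the part of spread in them was not tested. In H1299 at 24 h 6 of the 18 members were lower and 0 of the 12 hosts were called in either direction. There 8.53% of all genes were higher and 3.21% lower. RPL27A rose by 0.69 ± 0.13 in H460 (limma, adjusted p = 0.000209) while SNORA3A and SNORA3B in its introns changed by -0.89 and -1.34, both called falls. RPL3 changed by 0.19 ± 0.06 (adjusted p = 0.0284) while its SNORD43 changed by -1.31. At 0 h 8 of the 12 ribosomal protein hosts were lower in H460 and 2 higher. Of the 33 members in such genes, 18 were higher and 4 lower, where 26.0% of all genes were higher and 29.1% lower.

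**Figure D5:**
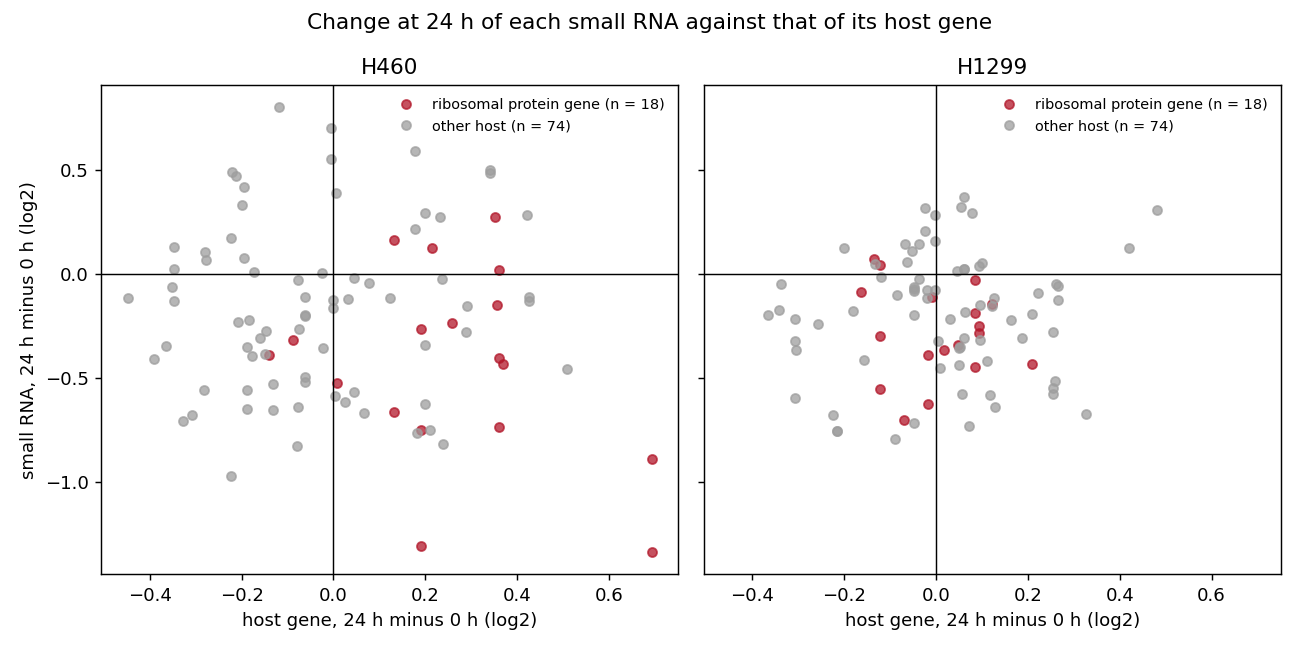
Change at 24 h of each small RNA (vertical, log2) against that of its host gene (horizontal, log2) for 92 pairs, with the 18 in ribosomal protein genes in red, H460 left and H1299 right. In H460 12 of the 18 red points lie right of 0 and below 0.

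The hosts with a pyrimidine run over the annotated start used and those without one there held 46 and 64 members. In H460 at 24 h 18 of the 46 and 23 of the 64 were lower (medians -0.30 and -0.27), and in H1299 5 of the 46 and 14 of the 64 were lower (medians -0.24 and -0.13). At 2 h in H460 it was 30 of the 46 and 30 of the 64 (medians -0.71 and -0.32). Of all genes, 12.4% were lower in H460 and 3.21% in H1299 at 24 h, and 23.7% in H460 at 2 h. Hosts of RNAs that fell included some with a run (RPL27A, RPSA and RPL3) and some with none in the window used (GAS5, EIF5 and KANSL2). Other starts of these hosts were not examined.

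The proteins of the snoRNA particles were measured as messengers. Of the H/ACA core proteins, NOP10 and NHP2 were higher in H460 at 24 h by 0.59 ± 0.16 and 0.50 ± 0.14, GAR1 was lower with a change of -0.50 ± 0.13 (limma, adjusted p = 0.00573), and the pseudouridine synthase DKC1 changed by -0.32 ± 0.12 (adjusted p = 0.0518). In H1299 none of these 4 was called at 24 h. Of the box C/D core proteins, fibrillarin (FBL) and NOP58 were measured and changed by -0.26 ± 0.12 and -0.30 ± 0.13 in H460 at 24 h, without passing the test. WRAP53, which brings scaRNAs to Cajal bodies, was lower in H460 at 24 h with a change of -0.39 ± 0.10 (adjusted p = 0.00589). Of 24 proteins of rRNA synthesis and processing, 1 was higher and 3 lower in H460 at 24 h, against 1 and 1 in H1299. Of 11 snoRNA assembly factors, 1 was higher and 0 lower in H460, against 2 and 0 in H1299. Of all genes at 24 h, 16.2% were higher and 12.4% lower in H460, against 8.53% and 3.21% in H1299.

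Other small RNAs were set beside the members. Of 19 measured small noncoding RNAs outside the snoRNA families, 3 were higher and 3 lower in H460 at 24 h, against 0 and 5 in H1299. Of 173 microRNA genes, a list added after the values were seen, 2 were higher and 47 lower in H460 at 24 h, against 6 and 7 in H1299. At 24 h 16.2% of all genes were higher and 12.4% lower in H460, against 8.53% and 3.21% in H1299. At 2 h in H460, on the narrow arrays, 49 microRNA genes were higher and 8 lower, where 16.7% of all genes were higher and 23.7% lower. That balance was opposite in direction to that of the members. These counts are without array spread as a term, and the part of spread in them was not tested.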

How the data were processed

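Total RNA of irradiated H460 and H1299 cells was hybridised to Affymetrix whole-transcript arrays, from 100 ng RNA isolated with a kit that retains small RNA, per the labels' protocols. The deposited values are log2 summaries, 1 per transcript entry; the authors' background correction and normalization are not given in the sources used here, and no detection calls were used. Array medians lay between 5.97 and 6.18.

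Of 32321 entries, 19158 had a single gene symbol in the platform annotation, 1388 had several and 11775 were outside it. The entry with the highest mean was kept for each symbol, giving 18404 genes. Time courses were fitted per line with limma 3.58.1 in R 4.3.3 (quadratic in hours, moderated F-test, variance trend), changes against 0 h with 1 mean per time, the difference between lines as an interaction over 42 arrays, and the 0 h difference over 12 arrays. Tests were two-sided and adjusted by Benjamini-Hochberg over all 18404 genes at 0.05; ± is the model's standard error unless SD is named. The number of arrays limits the precision. No pair of arrays was identical.

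The members and gene lists were chosen with earlier results of these data known. RNAs were named as the 6 largest called rises and falls of each comparison whose groups did not overlap, the 4 smallest p per class and line, the measured RNAs of GAS5, SNHG1 and TAF1D (none for TAF1D) and those with their own promoter or a role in rRNA cleavage; others are said to be chosen later. Positions, hosts and promoter sequences are from RefSeq (GRCh38.p14), matched by symbol, with windows for 76 of 92 hosts. The scripts were tested on simulated data. Alternatives were quantile normalization, median centring, array spread as a term, a replicate block, 0 h subsets, a filter on dim genes, no variance trend, the dimmest entry per symbol and leaving out each array. Same-numbered arrays did not deviate together (mean r -0.01 in H460 and -0.02 in H1299), so the numbers do not pair the arrays.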

Additional observations from a re-analysis of the deposited data

Results flagged for a closer look

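Among 114 groups of 6 arrays at 0 h that were looked at for a lone array, 7 had an array far from the other 5, where chance gives about 1 in 20. In H460, SNORD83A was at 6.05 in replicate 1, and in replicate 5 SCARNA12 was at 8.29 and SCARNA23 at 2.59. In H1299, SNORD74 was at 9.89 in replicate 1, and in replicate 2 SNORA70G was at 5.28, SCARNA11 at 5.31 and the array spread at 3.24.

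The time courses of 20 RNAs differed between the lines by the interaction test (limma, adjusted over all genes). At the time of the largest difference, the H460 change exceeded the H1299 change by 1.24 for SNORA50A, 1.0 for SNORD33, 0.96 for SCARNA1, 0.94 for SNORD41, 0.92 for SNORD46, 0.90 for SNORD57, 0.89 for SNORD8, 0.88 for SNORA71C, 0.86 for SCARNA9, 0.79 for SNORA71A and 0.64 for SCARNA7, all at 8 h. It exceeded it by 1.01 for SNORA70C at 4 h, 0.79 for SCARNA5 at 12 h and 0.70 for SNORA46 at 24 h. The difference was -1.41 for SNORA62 at 8 h, -1.0 for SNORA58 at 4 h, and at 24 h -1.38 for SNORA13, -1.12 for SNORD43, -0.78 for SNORA5C and -0.72 for SNORD83A. The part of array spread in each of these differences was not tested.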

How the results depend on the processing

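With array spread as a term, the counts of called members became 59, 60, 58 and 56 from 4 to 24 h and 73 for the time course in H1299 (28, 32, 34, 26 and 42 without it), and in H460 0 (2 h), 9 (8 h) and 21 (12 h) (87, 36 and 46 without it). The same term gave 17 at 2 h, 24 at 4 h, 32 at 24 h and 46 for the time course in the difference between the lines (42, 13, 19 and 20 without it), and turned SNORD14C at 0 h to 0.37 (from -0.16), and SNORD14E and SNORD79 in H460 at 2 h to 0.063 and 0.34 (both -0.82). The replicate block, used although the numbers do not pair the arrays, gave 24 in H1299 at 2 h and 9 for the difference at 24 h. With only 0 h replicates 4 to 6 the H460 counts were 11, 19 and 26 from 4 to 12 h, and 7 for the difference at 4 h. With only replicates 1 to 3 they were 52 at 0 h, and 19 at 8 h and 9 at 24 h for the difference. One mean per time point gave 119 in the H460 time course, and leaving out the H460 2 h arrays, an alternative chosen after seeing the data, gave 33 for the difference of time courses. The cause was not tested.

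Leaving out 1 array at a time gave 19 to 66, 22 to 53, 21 to 47, 26 to 53 and 16 to 47 from 2 to 24 h and 34 to 54 for the time course in H1299. In H460 it gave 71 to 92, 8 to 28, 19 to 51, 26 to 54, 49 to 69 and 40 to 64. The 0 h difference ranged from 75 to 94, and the differences of change from 23 to 55 at 2 h, 6 to 18 at 4 h, 17 to 41 at 8 h, 9 to 29 at 12 h, 11 to 28 at 24 h and 17 to 29 for the time course. The highest H1299 counts at single times came without 0 h replicate 2, the array of narrow spread. Of 159 values of named RNAs, quantile normalization kept 146 on the same side of the threshold and in the same direction, median centring 154 and array spread 103. The filter on dim genes left out 37 of the 146 members, for which low signal limits what can be seen.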
